A study of Mus musculus with 8 samples.

Results

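RNA levels are described here for 105 of the 46078 genes in the deposited count table of fully grown mouse oocytes: genes for subunits and associated factors of RNA polymerases I, II and III, of Mediator, and of the general transcription factors. The genes were chosen by their symbols, as those beginning with Polr1, Polr2 or Polr3 and a letter, with Med or Taf and a number, or with Gtf2 or Gtf3, without Taf4b and without pseudogenes whose names end in -ps and a number. Of the 105, 103 are protein-coding genes of subunits or associated factors, Med9os is an antisense RNA, and Polr2k-ps is a processed pseudogene that the rule keeps because its name ends without a number. The filter on low counts passed 102 of them among 19241 genes tested. Polr2k-ps had 1 count over the 8 libraries, Taf9 3 counts and Taf7l 13 counts, and these genes were not tested. Taf9 shares 73.8% of its exon bases with Ak6 on the same strand, so its count may be incomplete.

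RNA polymerase I makes the large ribosomal RNA precursor, RNA polymerase II makes messenger RNAs, and RNA polymerase III makes transfer RNAs and 5S ribosomal RNA. Each is brought to its promoters by its own factors, namely SL1 for Pol I, TFIIA to TFIIH with Mediator for Pol II, and TFIIIA, TFIIIB and TFIIIC for Pol III. TFIID contains the TATA-binding protein TBP with its TBP-associated factors (TAFs), and part of the TAFs also belongs to the coactivator SAGA. In growing oocytes the TBP paralogue TBPL2 works with TFIIA, and by the end of growth transcription is largely silent, so that the germinal vesicle (GV) oocyte holds a store of maternal mRNA. CNOT7 and CNOT8 are the paralogous deadenylase subunits of the CCR4–NOT complex, which shortens poly(A) tails.

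RNA of fully grown GV oocytes was sequenced in 2 groups of 4 libraries, each made from 100 oocytes. The CNOT7&8 KO oocytes came from females with floxed alleles of Cnot7 and of Cnot8 and the Zp3-Cre transgene, in which Cre is expressed from the zona pellucida 3 promoter in growing oocytes. The control oocytes came from Zp3-Cre mice, so both groups carry the transgene. The floxed lines had been backcrossed to C57BL/6J for at least 8 generations, and oocytes were taken from 4-week-old females 48 h after 5 IU of PMSG. The labels do not say which animals each library came from, so p-values measure the spread between libraries, which may be technical. Total counts were 14943671 to 44092144 in the control libraries and 8639444 to 26784110 in the KO libraries. Values are given as CPM, the read count of a gene scaled to a common library total, after TMM scaling, which aligns libraries on a trimmed mean of the changes of all genes. They are relative to the other RNAs of the library, so less RNA of a gene in each oocyte and fewer oocytes with that RNA cannot be told apart.

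As a check of the labels, Cnot8 RNA stood at 197, 163, 157 and 154 CPM in the 4 control libraries and at 33.1, 35.5, 36.0 and 36.1 CPM in the KO libraries. Cnot7 RNA was 1049, 900.2, 898 and 886 CPM in the control libraries and 749, 789, 622 and 717 CPM in the KO libraries. The groups did not overlap for either gene, and the log2 fold changes were -2.25 for Cnot8 and -0.38 for Cnot7 (edgeR adjusted p = 8.2e-08 and 0.0105). The counts are of whole genes, so reads outside the deleted exons are included. With library size as the only scaling the value for Cnot7 was -0.09, not past the threshold. Control replicate 1 and KO replicate 4 stood apart from the other libraries of their groups for several genes below, and values without them are given where they were far from the others of their group.

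The study asked how loss of both deadenylases alters maternal mRNAs, including those with a cytoplasmic polyadenylation element (CPE), the 3′UTR motif bound by CPEB1. The motif TTTTAT was searched on the transcript strand of the longest annotated 3′UTR of each gene (GENCODE vM21, GRCm38, at least 50 bases). It occurred in 56 of 99 protein-coding members (56.6%) and in 8530 of 15167 such genes tested (56.2%). Among members that rose in the KO, as defined below, 9 of 14 held it (64.3%). Among those that fell, 27 of 54 did (50%). Over all genes the shares were 61.8% of those that rose and 52.1% of those that fell. The paper's own CPE analysis was of genes whose protein rose, most of which had unchanged or lower mRNA. It was joined by poly(A) tail and reporter assays of single genes. Shares by RNA change are another measure and do not address it. The genes that changed at least 2-fold with TMM scaling and hold the motif are shown. In their labels, 2-fold higher or lower stands for a change of at least 2-fold. Each is given with the copy nearest the 3′ end, 12 bases on either side where the transcript reaches so far, and the motif in capitals.
Gtf3c4, 2-fold higher, chr2:28822310-28822315, minus strand: ataaagagaaaaTTTTATggttatgcaaa
Polr3g, 2-fold higher, chr13:81675629-81675634, minus strand: cctggaacattgTTTTATcacgctgtgacc
Polr3e, 2-fold higher, chr7:120945994-120945999, plus strand: gactcctgccaaTTTTATtaaaccaaattg
Polr1c, 2-fold higher, chr17:46243995-46244000, minus strand: ccagtcaatacaTTTTATtaaatgtgccac
Med13, 2-fold higher, chr11:86267552-86267557, minus strand: tgtggtttaaatTTTTATatgtattctcat
Polr1a, 2-fold lower, chr6:71982224-71982229, plus strand: ggcccttctgtaTTTTATgtataaaatggt
Gtf2h3, 2-fold lower, chr5:124596831-124596836, plus strand: taaaaatcctatTTTTATatttactaattt
Gtf2ird2, 2-fold lower, chr5:134223739-134223744, plus strand: tttaagataacaTTTTATatactgtaagga
The element of Gtf3c4 lay 11 bases from the annotated 3′ end, that of Polr1c 75 bases, and those of Polr3e and Polr3g 1433 and 1786 bases. Med13 held 8 copies and Gtf3c4 5 copies in 3′UTRs of 3953 and 4434 bases. Polr2a, Taf1c and Gtf3c5, which also rose at least 2-fold, held no TTTTAT in the annotated 3′UTR. A match is a string of letters in the annotation, and its use in oocytes was not measured.

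Genes with an adjusted p of at most 0.05 in edgeR's quasi-likelihood test over all 19241 genes are said to have risen or fallen. Of the 102 genes tested, 56 fell in CNOT7&8 KO oocytes (54.9%, against 24.1% of all genes), 15 rose (14.7%, against 31.2%) and 31 did neither. Their median log2 fold change was -0.40, with quartiles of -0.76 and 0.10, and the median over all genes was 0.12. In 51 genes every KO library was below every control library (50%, against 21.4% of all genes), and in 15 every KO library was above (14.7%, against 27%). All 15 that rose and 46 of the 56 that fell had no overlap between groups. The largest increase, of 2.99 on the log2 scale, exceeded the largest decrease, of -1.55. At least 2-fold, 9 rose (8.82%, against 23.8% of all genes) and 7 fell (6.86%, against 6.56%), and the other 49 decreases were smaller. The count of 2-fold decreases depended on single libraries. It was 14 without control replicate 1, 11 without KO replicate 3 and 4 without KO replicate 2 or without KO replicate 4. Of all genes, 7.46%, 6.97%, 6.60% and 5.50% fell at least 2-fold without these libraries in turn. RLE scaling also gave 56 decreases (54.9%, against 23.8% of all genes), and the other scalings tried gave fewer. When libraries were scaled by their size alone, 27 fell (26.5%, against 13.6%) and 26 rose (25.5%, against 40.2%), and no gene turned from a rise to a fall or back.

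**Figure D1:**
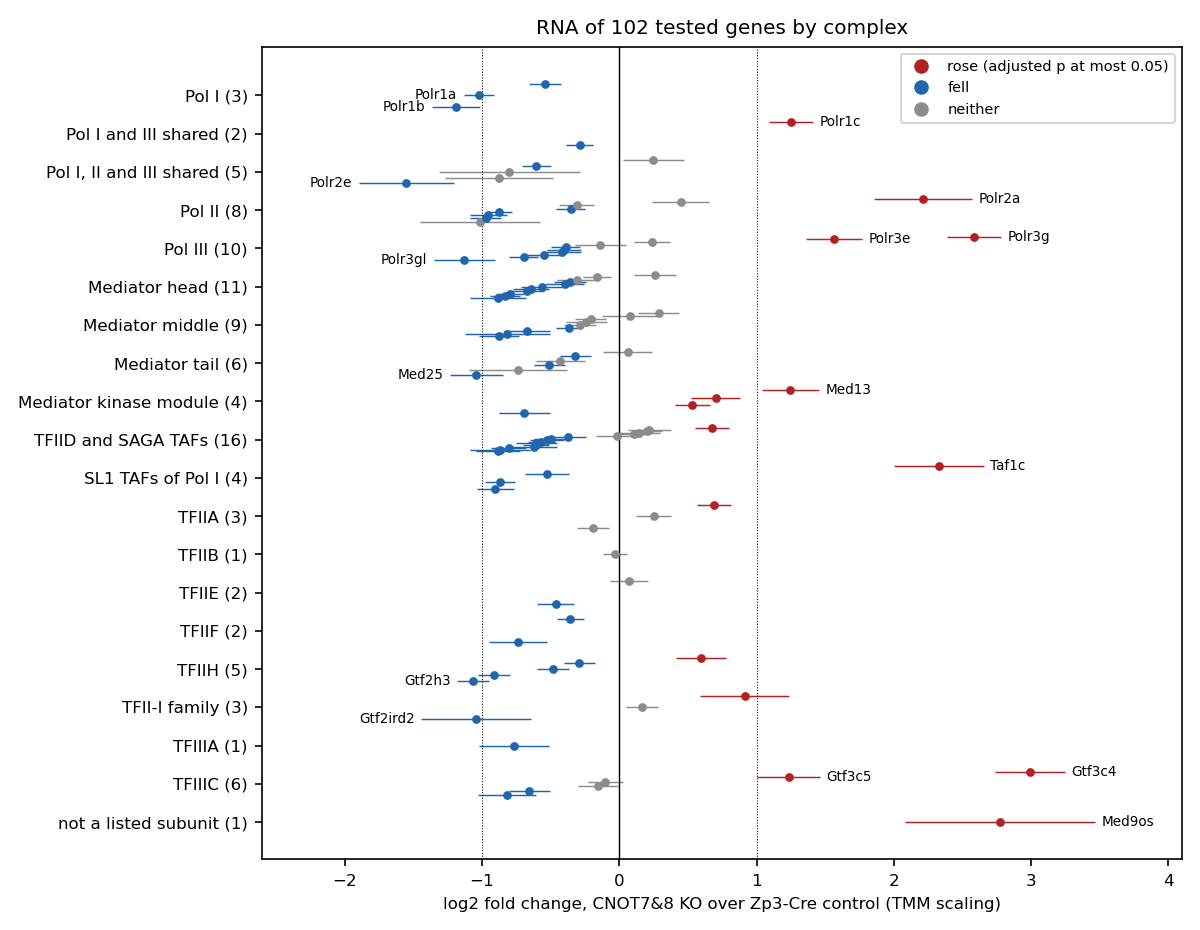
Log2 fold change (CNOT7&8 KO over Zp3-Cre control, TMM scaling) of the 102 tested genes, 1 point per gene with its standard error, in rows by complex with the number of genes. Points right of 0 are higher in the KO. Genes past 2-fold (dotted lines) are named. Of the 102 points, 56 are genes that fell and 15 are genes that rose, and the points farthest to the right include Polr2a at 2.21 and Gtf3c4 at 2.99.

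Abundance moved with the direction of change over all genes, so the counts are also given by mean level over the 8 libraries. At 100 CPM or more, 17 of 26 members fell (65.4%, against 55.2% of all genes at that level) and 1 rose (3.85%, against 8.37%), with a median log2 fold change of -0.37 in both. At 10 to under 100 CPM, 36 of 66 fell (54.5%, against 36.8%) and 9 rose (13.6%, against 25.7%), with medians of -0.45 for members and -0.17 for all genes. At 1 to under 10 CPM, 4 of 8 rose (50%, against 44.1%) and 2 fell (25%, against 15.7%). Below 1 CPM were Med9os, which rose, and Gtf2ird2, which fell, where 35.6% and 3.36% of all genes rose and fell. The counts by complex below were not split by level and stand against these shares of all genes.

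Polr2a, which codes for the largest subunit of RNA polymerase II and carries the catalytic centre and the C-terminal repeat domain, was higher in the KO while 4 of the other 7 genes named for this enzyme alone fell. Its RNA stood at 7.65, 5.58, 6.40 and 7.21 CPM in the control libraries and at 16.5, 19.7, 26.5 and 61.1 CPM in the KO libraries. Each KO library was above each control library, with KO replicate 4 far above the rest. The log2 fold change was 2.21 ± 0.36 (SE; edgeR adjusted p = 0.000248), and 1.67 without KO replicate 4 (edgeR adjusted p = 3.03e-05). Polr2d, a subunit of the stalk, stood at 324, 345, 335 and 329 CPM in the control libraries and at 187, 191, 178 and 172 CPM in the KO libraries. The spread within each group was small, and the log2 fold change was -0.87 ± 0.09 (edgeR adjusted p = 1.06e-05). Polr2b and Polr2c, the second largest subunit and a core assembly subunit, had log2 fold changes of -0.95 and -0.97. Polr2g, the partner of Polr2d in the stalk, was at -0.35, and its call was lost with library size only. Polr2i, Polr2j and Polr2m did not pass the threshold, with log2 fold changes of -1.01, -0.31 and 0.45. Polr2i, a small subunit, was at -1.33 without control replicate 1 and -1.08 without control replicate 1 and KO replicate 4 (edgeR adjusted p = 0.00215 and 0.000113), past the threshold in both, and at -0.77 without KO replicate 4 alone, not past it. Control replicate 1 and KO replicate 4 were the lowest libraries of their groups for Polr2i. Leaving them out narrows the spread, so its result over all libraries stands. Polr2i shares 26.8% of its exon bases with Tbcb on the opposite strand, and Tbcb had 8798 counts against 9678 of Polr2i. Polr2c shares 18.1% with Dok4 on the opposite strand, which had 9453 counts against 52391 of Polr2c. Polr2m encodes Gdown1, which associates with the enzyme and restrains it.

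Per kilobase of exon, Polr2a had the lowest RNA level of the Pol II genes in control oocytes, at 0.949 CPM per kb, and Polr2d the highest, at 329 CPM per kb. In the KO the mean levels were 4.38 and 179 CPM per kb, so the order at both ends was kept for the group means. Polr2a and Polr2m (mean of 5.05 CPM per kb in the KO) lay close together. The order did not hold in every KO library. In KO replicate 4 Polr2a was above Polr2m (8.65 against 6.52 CPM per kb), and in KO replicate 3 Polr2j was above Polr2d (183 against 175 CPM per kb). The counts of Polr2b per count of Polr2a in the same library, which need no scaling, were 36.5 to 46.9 in the control libraries and 2.61 to 8.90 in the KO libraries. Counts of Polr2d per count of Polr2a were 42.4 to 61.9 and 2.81 to 11.3. These ratios were chosen after the values had been seen and are given without a test, and the lowest value of both ratios came from KO replicate 4.

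**Figure D2:**
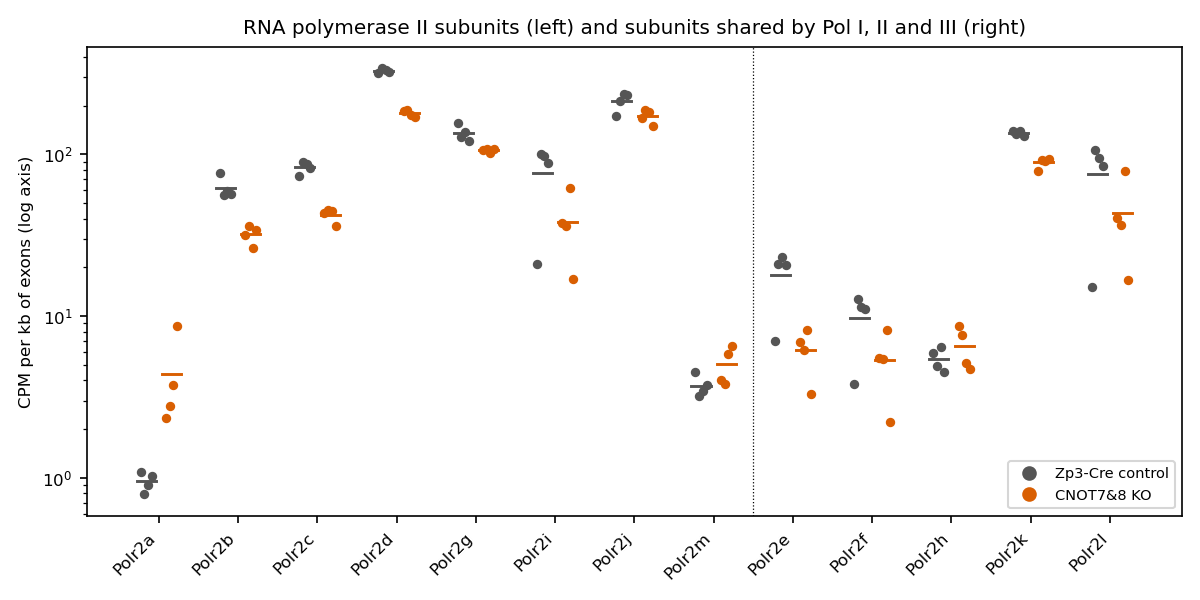
RNA levels of the Pol II subunit genes (left) and of the genes for subunits shared by all 3 polymerases (right), in CPM per kb of exon on a log axis. Points are the 4 libraries of each group in the order of their replicate numbers and bars are means. Polr2a is the lowest gene in the control group and is higher in all 4 KO libraries. In Polr2e, Polr2f, Polr2i and Polr2l the first control point and the last KO point lie well below the others.

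Of the 5 genes whose products are part of all 3 polymerases, 2 fell and 3 did neither. Polr2e had 18.6, 55.7, 61.8 and 54.9 CPM in the control libraries and 18.4, 16.4, 21.9 and 8.75 CPM in the KO libraries. Control replicate 1 lay within the KO range, so the groups overlapped. The log2 fold change was -1.55 ± 0.35 (edgeR adjusted p = 0.00254), -1.83 without control replicate 1 (edgeR adjusted p = 4.2e-05) and -1.33 without KO replicate 4. Polr2k, with 80.9 to 87.3 CPM in the control libraries and 49.3 to 58.2 CPM in the KO libraries, fell with no overlap (-0.61; edgeR adjusted p = 0.000424). Polr2l ranged from 25.0 to 176 CPM within the control group alone and from 27.7 to 130.3 CPM within the KO group, and a log2 fold change of -0.80 did not pass the threshold. Polr2f and Polr2h did not pass it either, at -0.88 and 0.25. Without control replicate 1, Polr2l was at -1.15 and Polr2f at -1.16, and without control replicate 1 and KO replicate 4 together they were at -0.87 and -0.88, past the threshold in each case (edgeR adjusted p = 0.0145, 0.00689, 0.00427 and 0.000522). Without KO replicate 4 alone they were at -0.54 and -0.60 and did not pass it. Control replicate 1 and KO replicate 4 held the lowest values of their groups for both genes. Leaving out the lowest libraries narrows the spread, so these values do not replace the results over all libraries.

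Polr1a, Polr1b and Polr1e, the 3 genes with Polr1 symbols whose products are found only in RNA polymerase I, fell. Other subunit genes of this enzyme carry other symbols (Twistnb, Cd3eap and Znrd1), and of these Twistnb rose, Cd3eap fell and Znrd1, at 0.14, did neither. Polr1a, the largest subunit, had 102, 109, 101 and 102 CPM in the control libraries and 57.0, 44.4, 53.5 and 49.3 CPM in the KO libraries. Polr1b, the second largest subunit, had 21.8, 19.1, 19.9 and 18.7 CPM and 7.06, 10.3, 6.78 and 10.5 CPM. In both genes the groups were clearly apart, and the log2 fold changes were -1.02 ± 0.11 and -1.19 ± 0.18 (edgeR adjusted p = 1.39e-05 and 0.000136). With library size only, they were -0.74 and -0.90, past the threshold but under 2-fold. Polr1e, which had the highest level of the 3 per kilobase, fell by 0.54 on the log2 scale, a fall that was lost with that scaling.

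The 2 subunits that Pol I shares with Pol III form a pair in the enzyme, and their genes moved in opposite directions. Polr1c had 6.95, 9.48, 9.05 and 9.40 CPM in the control libraries and 21.6, 20.0, 23.4 and 17.6 CPM in the KO libraries. Every KO library was above every control library, and the log2 fold change was 1.25 ± 0.16 (edgeR adjusted p = 4.8e-05), 1.15 without control replicate 1 and 1.34 without KO replicate 4. Polr1d had 155 to 172 CPM and 123 to 147 CPM, a log2 fold change of -0.29 (edgeR adjusted p = 0.0261) that did not pass the threshold with library size only.

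SL1, which places Pol I on the ribosomal DNA promoter, had 3 genes that fell and 1 that rose. Taf1c had 2.06, 4.59, 3.33 and 3.06 CPM in the control libraries and 15.1, 12.1, 27.3 and 10.7 CPM in the KO libraries, with the groups apart. The log2 fold change was 2.33 ± 0.33 (edgeR adjusted p = 8.78e-05). Taf1c shares 16.7% of its exon bases with Dnaaf1 on the opposite strand, and Dnaaf1 had 35 counts in all against 1378 of Taf1c. Taf1a, the most abundant SL1 gene per kilobase, had 492, 408, 392 and 381 CPM in the control libraries and 223, 245, 210.1 and 239 CPM in the KO libraries (log2 fold change -0.87 ± 0.11, edgeR adjusted p = 4.5e-05). Taf1b and Taf1d had log2 fold changes of -0.90 and -0.53, and the fall of Taf1d was lost with library size only. Taf1d shares 1.12% and 0.827% of its exon bases with the snoRNA genes Gm23455 and Gm24357 on the same strand. These had 4767 and 3750 counts against 4999 of Taf1d. There were 88.8 to 239 counts of Taf1a per count of Taf1c in the control libraries and 7.69 to 22.3 in the KO libraries, a ratio chosen after the values had been seen.

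Among the 10 genes found only in RNA polymerase III, 2 rose, 6 fell and 2 did neither, with a median log2 fold change of -0.40. With library size only, 3 rose and 2 fell. Over all genes, 31.2% rose and 24.1% fell with TMM scaling, and 40.2% and 13.6% with library size only. Polr3g codes for a subunit of the initiation subcomplex that can be replaced by its paralogue Polr3gl. Polr3g stood at 7.59, 4.79, 5.99 and 5.54 CPM in the control libraries and at 30.7, 28.6, 41.6 and 43.3 CPM in the KO libraries. Polr3gl stood at 3.45, 4.79, 4.08 and 4.15 CPM in the control libraries and at 1.41, 1.98, 1.79 and 2.18 CPM in the KO libraries. The groups did not overlap for either gene, and their log2 fold changes were opposite, 2.58 ± 0.20 and -1.13 ± 0.22 (edgeR adjusted p = 9.94e-07 and 0.00108). With library size only, Polr3gl was at -0.85, still past the threshold but under 2-fold.

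Polr3e, which pairs with Polr3d in a subcomplex used in initiation and termination, had 10.3, 10.6, 15.9 and 10.1 CPM in the control libraries and 33.4, 28.0, 47.5 and 29.6 CPM in the KO libraries. The groups were apart, with a log2 fold change of 1.57 ± 0.21 (edgeR adjusted p = 5.6e-05). Polr3d itself had a log2 fold change of -0.14 and did not pass the threshold. Polr3a, the largest subunit and the most abundant of the Pol III genes per kilobase, had 475, 436, 374 and 395 CPM in the control libraries and 258, 271, 241 and 265 CPM in the KO libraries. All KO libraries were lower, with a log2 fold change of -0.70 ± 0.11 (edgeR adjusted p = 0.000155). Polr3b, Polr3c and Polr3f fell by between 0.39 and 0.55 on the log2 scale, and none of these falls passed the threshold with library size only. Polr3k, with a log2 fold change of 0.24, did not pass.

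TFIIIC recognizes the internal promoters of transfer RNA genes and recruits TFIIIB. Of its 6 genes, 2 rose, 2 fell and 2 did neither. Gtf3c4 had 9.65, 4.49, 5.31 and 4.66 CPM in the control libraries and 43.5, 40.6, 47.4 and 63.9 CPM in the KO libraries. Its log2 fold change of 2.99 ± 0.26 (edgeR adjusted p = 2.17e-06) was the largest among the 102 genes, and it was 3.35 without control replicate 1 and 2.87 without KO replicate 4. Gtf3c5 had 2.30, 1.68, 2.45 and 1.60 CPM in the control libraries and 3.91, 4.23, 5.67 and 5.11 CPM in the KO libraries (log2 fold change 1.23 ± 0.23, edgeR adjusted p = 0.000735). Both genes were higher in every KO library than in any control library. Gtf3c1 and Gtf3c2, the large DNA-binding subunit and a subunit associated with it, had log2 fold changes of -0.66 and -0.82. Gtf3c3, at -0.10, and Gtf3c6, at -0.16, did not pass the threshold. Gtf3a, the 5S ribosomal RNA gene factor TFIIIA, had a log2 fold change of -0.77 (edgeR adjusted p = 0.0224). It lost the call with library size only, and it shares 59.1% of its exon bases with Mtif3 on the opposite strand.

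**Figure D3:**
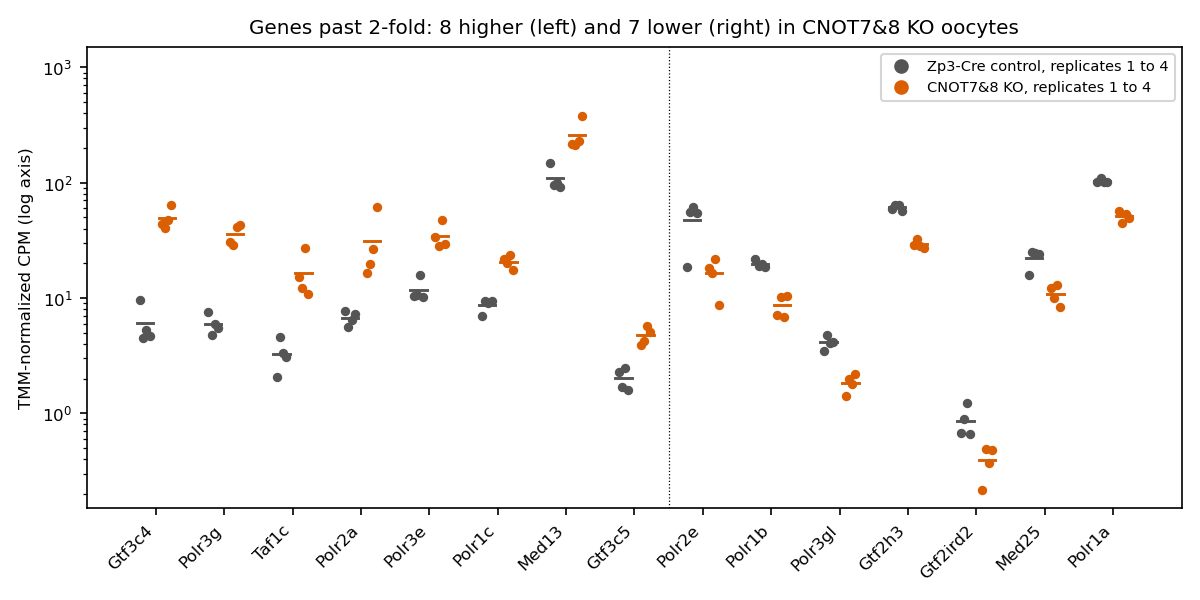
TMM-scaled CPM (log axis) of the 15 protein-coding genes that changed at least 2-fold, with 1 point per library in the order of the replicate numbers and a bar for the mean of 4. For the 8 genes to the left of the dotted line, all KO points lie above all control points. Of the 7 genes to the right, Polr2e overlaps through its first control library at 18.6 CPM, and the other 6 do not overlap.

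Mediator connects transcription activators with Pol II. Its core is divided into head, middle and tail, and a kinase module with CDK8 or CDK19 joins it reversibly. Of 26 core genes, 15 fell, 11 did neither and none rose, with log2 fold changes from -1.04 to 0.29. In the head 8 of 11 fell, in the middle 4 of 9 and in the tail 3 of 6. With library size only, and also with TMM on genes of at least 10 CPM, 5, 1 and 1 fell, and 1 gene of the head and 1 of the middle rose. Of all genes, 24.1% fell and 31.2% rose with TMM scaling, 13.6% and 40.2% with library size only, and 14.9% and 39.4% with the other. With TMM scaling, 36.8% of all genes at 10 to under 100 CPM fell, and 55.2% at 100 CPM or more. Med17, a scaffold of the head and its second most abundant gene after Med6 per kilobase in control oocytes, had 368 to 461 CPM in the control libraries and 336 to 365 CPM in the KO libraries. Its log2 fold change of -0.16 did not pass the threshold and was 0.12 with library size only. Med7 of the middle module had 148 to 194 CPM and 119 to 146 CPM and missed the threshold (-0.29; edgeR adjusted p = 0.0504). Med27, the most abundant tail gene per kilobase, had 149, 173, 176 and 173 CPM in the control libraries and 119, 130.2, 123 and 99.5 CPM in the KO libraries. It fell with no overlap (-0.51; edgeR adjusted p = 0.0024), and was at -0.56 without control replicate 1 and -0.42 without KO replicate 4. The call for Med27 was lost with library size only.

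Med25, a tail subunit bound by activators, was the core gene with the largest decrease. It had 15.7, 25.0, 24.3 and 24.3 CPM in the control libraries and 8.38 to 13.0 CPM in the 4 KO libraries. The lowest control library was still above the highest KO library, and the log2 fold change was -1.04 ± 0.20 (edgeR adjusted p = 0.000757), or -0.77 with library size only, -1.18 without control replicate 1 and -0.92 without KO replicate 4. Med8 and Med30 of the head fell with no overlap, with 83.3 to 90.3 and 87.7 to 103 CPM in the control libraries and 44.6 to 53.8 and 53.7 to 57.8 CPM in the KO libraries. Med10 fell by 0.87 on the log2 scale, and 92.8% of its exon bases are annotated on the opposite strand as Gm26819, which had 1 count.

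Of the 4 genes of the kinase module other than its kinase and cyclin, 3 rose and 1 fell. Med13, which tethers the module to the core, had 149, 94.9, 100.1 and 92.5 CPM in the control libraries and 218, 214, 228 and 378 CPM in the KO libraries. The groups did not overlap although control replicate 1 and KO replicate 4 were the highest of their groups. The log2 fold change was 1.25 ± 0.21 (edgeR adjusted p = 0.000327), 1.44 without control replicate 1 and 1.04 without KO replicate 4. Its paralogue Med13l had 46.8 to 55.6 CPM and 66.0 to 92.3 CPM (log2 fold change 0.53, edgeR adjusted p = 0.00372). Med12 activates the kinase, and its RNA fell from 45.2, 39.6, 25.9 and 33.2 CPM in the control libraries to 21.5, 21.6, 18.2 and 27.7 CPM in the KO libraries, with overlap (-0.69; edgeR adjusted p = 0.0074). The call for Med12 was lost with library size only (-0.40). Its paralogue Med12l had 16.6 to 23.9 CPM in the control libraries and 25.4 to 39.4 CPM in the KO libraries, with no overlap (0.70; edgeR adjusted p = 0.00586), and it was at 0.85 without control replicate 1 and 0.57 without KO replicate 4. Of the kinases themselves, Cdk19 had 7.91 to 8.98 CPM in the control libraries and 23.7 to 50.2 CPM in the KO libraries (2.12), and Cdk8 109.8 to 124 CPM and 84.7 to 103 CPM (-0.30). Med9os, an antisense RNA named after Med9 and not a subunit, had 2, 4, 1 and 1 counts in the control libraries and 7, 6, 23 and 10 counts in the KO libraries, a fitted log2 fold change of 2.77 that rests on these few counts.

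Of the 16 tested TAFs of TFIID and SAGA, 10 fell, 1 rose and 5 did neither, with a median log2 fold change of -0.51. With library size only, 5 fell and 5 rose, so the balance of this group depended on the scaling. The balance over all genes moved too, from 24.1% that fell and 31.2% that rose to 13.6% and 40.2%. The gene that rose with TMM scaling was Taf11, a histone-fold partner of Taf13. It had 41.4, 34.8, 35.1 and 35.0 CPM in the control libraries and 56.8, 51.1, 66.4 and 60.3 CPM in the KO libraries (0.68 ± 0.12; edgeR adjusted p = 0.000613). Taf13 had 53.7, 34.9, 24.1 and 27.0 CPM in the control libraries and 17.7, 18.9, 19.9 and 20.2 CPM in the KO libraries (-0.87 ± 0.22; edgeR adjusted p = 0.00526). The 2 partner genes moved in opposite directions, and both calls held under every alternative tried. Taf7, the most abundant TAF gene per kilobase, had 372, 393, 458 and 393 CPM and 257, 289, 280.2 and 264 CPM (-0.57; edgeR adjusted p = 0.000529). Taf10 and Taf12, histone-fold subunits of both complexes, had log2 fold changes of -0.81 and -0.61. Taf10 shares 45.9% of its exon bases with Ilk on the opposite strand. Taf9b, the paralogue of Taf9, fell by 0.53 on the log2 scale, Taf5 and Taf6 fell by 0.37 and 0.61, and their SAGA paralogues were at 0.10 for Taf5l, not past the threshold, and -0.88 for Taf6l, past it. Taf5 lost the call without control replicate 1 (-0.23; edgeR adjusted p = 0.0521). Taf1, the largest TFIID subunit, was at -0.02. TBP itself is outside the symbol rule. Tbp RNA had 135, 135, 135 and 131 CPM in the control libraries and 88.1, 90.0, 81.7 and 81.1 CPM in the KO libraries (-0.65 ± 0.10; edgeR adjusted p = 0.000127). Its paralogues Tbpl1 and Tbpl2 did not pass the threshold, with log2 fold changes of -0.37 and -0.35.

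The factors that assemble with Pol II at the promoter did not move together. Gtf2b, the single TFIIB gene, had 458, 424, 444 and 425 CPM in the control libraries and 413, 431, 428 and 444 CPM in the KO libraries. The groups overlapped at a log2 fold change of -0.03, and its direction turned with the scaling, to 0.25 with library size only (edgeR adjusted p = 0.0175). In TFIIA, Gtf2a1l, the germ cell paralogue of the large subunit gene, had 60.6, 69.3, 80.1 and 69.9 CPM in the control libraries and 107, 119, 127 and 97.1 CPM in the KO libraries. It rose with no overlap (0.69 ± 0.13; edgeR adjusted p = 0.000607). Gtf2a1 did not pass the threshold, at 0.25, but did with library size only (0.54) and without control replicate 1 (0.36). In TFIIE, Gtf2e2 fell by 0.46 on the log2 scale and Gtf2e1 was at 0.07. The call for Gtf2e2 was lost with library size only. In TFIIF, both genes fell with TMM scaling and neither with library size only. Gtf2f1, the more abundant per kilobase in control oocytes, had 85.5, 166, 165 and 154 CPM in the control libraries and 86.9, 83.7, 108 and 63.6 CPM in the KO libraries. Control replicate 1 was again inside the KO range (-0.74; edgeR adjusted p = 0.0104), and the value was -0.92 without it and -0.61 without KO replicate 4 (edgeR adjusted p = 0.000212 and 0.0378).

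TFIIH opens the promoter and takes part in nucleotide excision repair, and 4 of its 5 genes under this naming fell while 1 rose. With library size only, 2 fell and 1 rose. Of all genes, 24.1% fell and 31.2% rose with TMM scaling, and 13.6% and 40.2% with library size only. Gtf2h3 had 58.6, 64.2, 64.4 and 56.5 CPM in the control libraries and 28.8, 32.2, 28.5 and 26.9 CPM in the KO libraries. The groups were well apart (-1.07 ± 0.12; edgeR adjusted p = 1.33e-05), and the value was -0.79 with library size only. Gtf2h1, the most abundant per kilobase, had 96.3 to 123 CPM and 51.4 to 63.2 CPM (-0.91; edgeR adjusted p = 4.54e-05). Gtf2h4 rose from 3.80, 4.69, 5.51 and 4.30 CPM to 7.49, 7.14, 6.66 and 6.27 CPM (0.59; edgeR adjusted p = 0.0151). In the TFII-I family, whose members bind initiator and E-box elements, Gtf2i rose by 0.91, Gtf2ird2 fell by 1.04 on the log2 scale and Gtf2ird1, at 0.17, did neither. Gtf2ird2 had 9 to 25 counts in the control libraries and 2 to 14 counts in the KO libraries. Its call (edgeR adjusted p = 0.0426) was lost in most alternatives, and that of Gtf2i (edgeR adjusted p = 0.0309) was lost when any 1 of 4 libraries was left out.

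Paralogous subunits were compared by the log2 ratio of their counts within each library, which does not depend on scaling. Gene length enters the ratio, so only its change between groups is read. Each of the 10 pairs was compared by a two-sided exact permutation test over the 70 assignments of the libraries, whose smallest p is 0.0286. Taf9b and Taf9 could not be compared because of the 3 counts of Taf9. The groups did not overlap in 6 pairs, each at exact p = 0.0286 and 0.0477 after Benjamini-Hochberg adjustment over the 10 pairs. One of these is Taf7l to Taf7, where Taf7l had 0 counts in 3 of the 4 control libraries, so that its ratio is set by the 0.5 added and is not read. Over the 9 pairs without it, a setting added after seeing the data, the adjusted p of the other 5 is 0.0514, which misses the threshold, so their ratios are given as values. Polr3g to Polr3gl was 2.20, 1, 1.46 and 1.33 in the control libraries and 21, 14.3, 22.9 and 19.7 in the KO libraries, a 13.3-fold higher ratio. Cdk19 to Cdk8 was 5.11-fold higher, with 0.0638 to 0.0821 in the control libraries and 0.231 to 0.545 in the KO libraries. Med12l to Med12 was 0.431 to 0.648 in the control libraries and 1.18 to 1.67 in the KO libraries, a 2.59-fold higher ratio. Per kilobase of exon, mean levels were 1.45 CPM for Med12l and 4.67 CPM for Med12 in control oocytes. In KO oocytes they were 2.37 and 2.89 CPM, so the mean of Med12l stayed below that of Med12 once length was counted. The difference between groups in the log2 ratio was -0.71 for Med13l to Med13, both of which rose, and -1.24 for Gtf2ird2 to Gtf2ird1. Gtf2a1l to Gtf2a1 (0.43, exact p = 0.1429, adjusted 0.1786), Taf5l to Taf5 (0.46, exact p = 0.0571, adjusted 0.0816), Taf6l to Taf6 (-0.26, exact p = 0.2571) and Tbpl2 to Tbp (0.34, exact p = 0.2, adjusted 0.2222) did not pass.

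**Figure D4:**
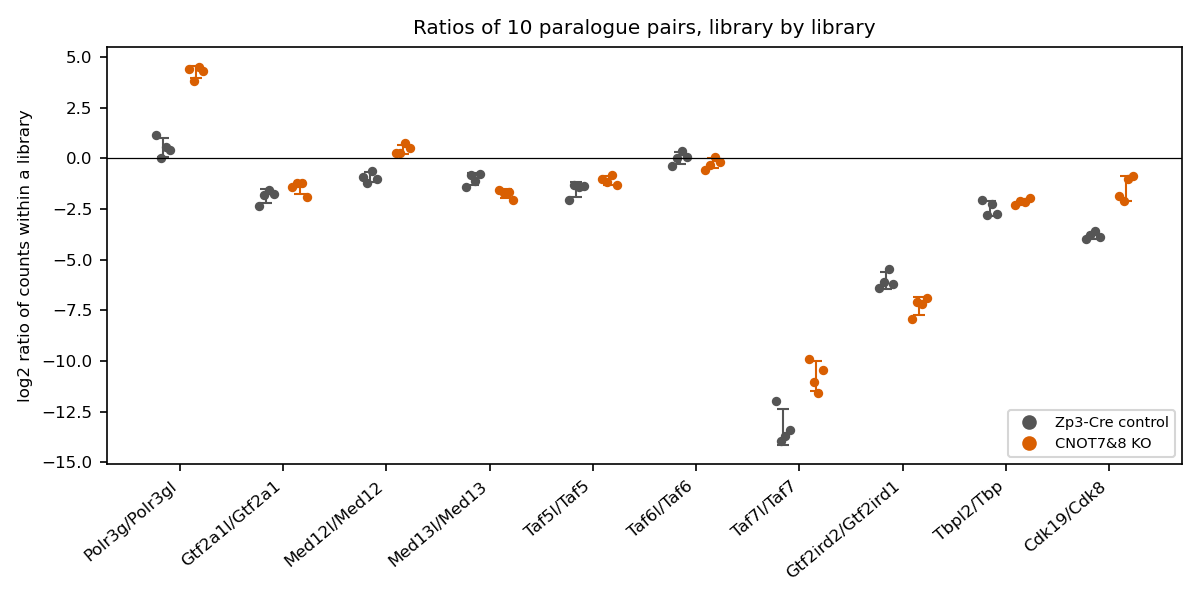
Log2 ratio of the counts of 2 paralogues within each library, for 10 pairs, with 0.5 added to each count. Points are libraries in the order of the replicate numbers and the bars span 1 SD on either side of the mean. The groups do not overlap for Polr3g/Polr3gl, Med12l/Med12, Med13l/Med13, Gtf2ird2/Gtf2ird1 and Cdk19/Cdk8, nor for Taf7l/Taf7, where Taf7l is at 0 counts in 3 control libraries.

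The genes that rose at least 2-fold had low RNA levels in control oocytes. Ordered by control CPM per kilobase, 8 of these 9 genes were among the 25 lowest of the 102, with Med13 the exception at 10.1 CPM per kb, and the median over the 102 genes was 11.4 CPM per kb. Gtf3c4 stood at 0.834, Taf1c at 0.934, Polr3g at 1.52, Polr3e at 2.33 and Polr1c at 3.83 CPM per kb in control oocytes. In KO oocytes they reached 6.76, 4.67, 9.16, 6.89 and 9.08 CPM per kb, still below the control median of the group. Ranking on the control level favours a rise in those ranked low, so this order is a description. Low control level went with a rise in some of these genes and not in others, since Med25, Polr1b and Polr3gl, at 2.92, 3.42 and 2.58 CPM per kb in control oocytes, fell at least 2-fold.

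Other genes of the same pathways, from lists of polymerase assembly, TFIIH, TFIIIB, SAGA, pausing and elongation factors and the mitochondrial polymerase, numbered 76, of which 74 were in the table and tested. Of these, 40 fell (54.1%, against 24.1% of all genes), 21 rose (28.4%, against 31.2%) and 13 did neither, with a median log2 fold change of -0.38. At least 2-fold, 13 rose (17.6%, against 23.8%) and 3 fell (4.05%, against 6.56%). These genes and the lists within them were not split by level. Of all genes at 10 to under 100 CPM, 36.8% fell and 25.7% rose, and at 100 CPM or more 55.2% and 8.37%. Of the 20 pausing and elongation genes, 11 fell, 6 rose and 3 did neither. Those past 2-fold were the P-TEFb kinase Cdk9 (1.90), its inhibitor Hexim1 (3.12) and the super elongation complex genes Aff4 (2.27) and Ell2 (1.93), which rose. The NELF subunit gene Nelfcd fell by 1.14 on the log2 scale. Hexim1 had only 9, 7, 8 and 2 counts in the control libraries. Of the 14 genes tested from the SAGA list, 8 fell, 5 rose and 1 did neither. The acetyltransferase Kat2b (3.79), the deubiquitinase Usp22 (1.38) and its cofactor Atxn7l3 (2.54) rose at least 2-fold. Control counts were few for Kat2b, at 6 to 26, and for Atxn7l3, at 5 to 24. For Pol I, the promoter factor Ubtf (1.51) and the subunit gene Twistnb (1.32) rose, and the subunit gene Cd3eap, whose product pairs with that of Polr1e, fell by 1.02. Snapc2 (1.91), Gpn3 (1.75), Rprd1b (2.28) and Cdk19 completed the genes that rose 2-fold. Polrmt, the mitochondrial RNA polymerase, had 10.6, 42.0, 34.6 and 33.8 CPM in the control libraries and 11.3, 12.1, 18.1 and 5.62 CPM in the KO libraries. Its lowest values were in control replicate 1 and KO replicate 4, as in Polr2e (-1.36; edgeR adjusted p = 0.0117), and the log2 fold change was -1.66 without control replicate 1 and -1.12 without KO replicate 4.

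**Figure D5:**
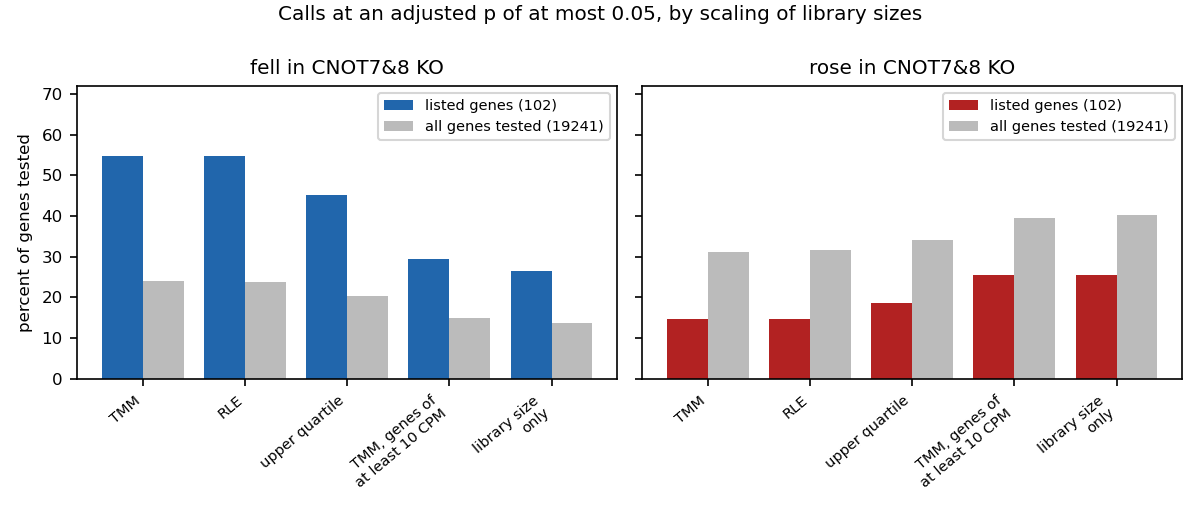
Share of genes that fell (left) and rose (right) at an adjusted p of at most 0.05 under 5 scalings of the library sizes, for the 102 listed genes and for all 19241 genes tested, in percent. The listed genes fall from 54.9% to 26.5% between TMM and library size only, and the share of all genes that fell is lower in each.

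The RNA composition differed between the groups, with TMM factors of 0.849 to 0.943 in the control libraries and 1.07 to 1.14 in the KO libraries. Together the 105 genes held 0.841 to 0.920% of the counts in the control libraries and 0.797 to 0.885% in the KO libraries, ranges that overlap, against 9417 to 9908 and 7475 to 7760 CPM after TMM scaling, which do not. The median of all genes moved by 0.29 on the log2 scale with library size only, and the median of the listed genes from -0.40 to -0.12. The 8 subunit genes that rose 2-fold with TMM scaling kept that call under every alternative tried. Of the 7 that fell 2-fold, Polr2e kept the call in each alternative. Of the 56 that fell, 27 kept an adjusted p of at most 0.05 in every alternative, among them Polr1a, Polr1b, Polr2b, Polr2c, Polr2d, Polr3a, Taf1a, Med25 and Gtf2h3.

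Markers of other cells were also measured. The 10 oocyte markers summed to 16922 to 19875 CPM in the control libraries and 14744 to 16890 CPM in the KO libraries. Granulosa and cumulus markers, from the cells that surround the oocyte, summed to 71.1 to 88.8 CPM and 87.6 to 143 CPM, and of 9 tested of 10, 5 rose, each at least 2-fold (55.6%, against 23.8% of all genes), and 1 fell. Mean levels of those that rose went from 2.94 to 36.7 CPM for Ptgs2, 1.58 to 7.51 for Fst, 6.86 to 25.9 for Inha, 1.29 to 3.87 for Fshr and 2.50 to 5.50 for Inhba. For Inha, Fst and Inhba the groups overlapped through KO replicate 4, at 4.77, 1.53 and 1.63 CPM. The other KO libraries had 26.5 to 38.4, 5.61 to 13.2 and 5.61 to 7.49 CPM. Ptgs2 and Fshr were higher in every KO library than in any control library. Cyp19a1 fell from 58.5 to 31.3 CPM. Foxl2, a defining granulosa gene, had 0 or 1 count in every library. Of 6 blood and immune markers, Hba-a1 and Hbb-bs had 0 counts in all libraries and 1 passed the filter, the leukocyte gene Ptprc. It rose, with 1, 1, 5 and 1 counts in the control libraries and 3, 10, 18 and 14 counts in the KO libraries (log2 fold change 2.53, edgeR adjusted p = 0.0108). The part of these cells in the changes described was not tested.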

How the data were processed

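The authors depleted ribosomal RNA, sequenced stranded libraries, processed the reads in the nf-core/rnaseq pipeline with STAR 2.6.1d on GRCm38 and deposited raw read counts per gene. The counting step within that pipeline, its annotation and its strand setting are not given in the sources used here, so counts of overlapping and antisense genes are uncertain. The members, the lists and the tests were chosen with earlier results of these data known.

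Counts of genes that reached 0.2 CPM in at least 2 libraries were compared with edgeR 4.0.16 in R 4.3.3 (quasi-likelihood test, TMM scaling, Benjamini-Hochberg adjustment over 19241 genes, threshold 0.05). Alternatives were edgeR's exact test, DESeq2 1.42.0, other scalings and filters, the replicate number as a block, and leaving out each library in turn or control replicate 1 and KO replicate 4 together. The comparison of scalings over all genes, the paralogue pairs without Taf7l and Taf7, and the values of Polr2f, Polr2i and Polr2l without single libraries were added after seeing the data. The tests were also run on simulated counts. Counts of paralogues were compared as log2 ratios with an added 0.5. Positions, exon lengths and 3′UTRs came from GENCODE vM21 (GRCm38), which held 98.0% of the gene identifiers. The depth limits low genes, since 3 counts correspond to 0.0680 to 0.347 CPM of unscaled library size.

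Named with values were members that changed 2-fold, the most abundant member of each complex per kilobase over both groups, the 3 members with the smallest adjusted p in each direction, the paralogue pairs, the TBP family, Cnot7 and Cnot8, and pathway genes that changed 2-fold. The values of 1 member are not reported here. Other members were picked as examples with their values in view.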

Additional observations from a re-analysis of the deposited data

Results flagged for a closer look

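In the 150 groups of 4 libraries (65 named genes and 10 paralogue ratios, in 2 genotypes), the highest or lowest library stood apart from the other 3 by Dixon's test at the 95% level in 23. Chance alone gives about 1 in 20, or 7.5, and genes measured in the same library are not independent. Of the 23, 12 were in control replicate 1 and 3 in KO replicate 4.

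Control replicate 1 was high for Gtf3c4 (9.65 CPM, others 4.49 to 5.31), Med12l (23.9, others 16.6 to 17.0), Med13 (149, others 92.5 to 100.1), Med17 (461, others 368 to 381), Taf5 (182, others 125 to 132), Gtf2a1 (314, others 236 to 242) and Cnot7 (1049, others 886 to 900.2). It was low for Polr2e (18.6, others 54.9 to 61.8), Gtf2f1 (85.5, others 154 to 166), Med25 (15.7, others 24.3 to 25.0), Med27 (149, others 173 to 176) and Polr1c (6.95, others 9.05 to 9.48). KO replicate 4 was high for Med13 (378, others 214 to 228), Gtf2a1 (367, others 279.9 to 291) and Taf5 (122, others 104 to 106). Without both libraries, 17 members rose and 61 fell, 10 and 8 of them at least 2-fold.

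In the other control libraries, replicate 2 was high for Kat2b (1.28, others 0.437 to 0.561), Med9os (0.197, others 0.0535 to 0.0728) and Polr1a (109, others 101 to 102), replicate 3 for Cdk19 (8.98, others 7.91 to 8.09) and Polr3e (15.9, others 10.1 to 10.6), and replicate 4 was low for Tbp (131, others at 135). In the other KO libraries, replicate 1 was high for Cd3eap (5.0, others 3.15 to 3.35) and replicate 3 for Hexim1 (4.50, others 2.06 to 2.25).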

How the results depend on the processing

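The count of members that rose was 15 and became 26 with library size only and 26 with TMM on genes of at least 10 CPM. The count that fell was 56 and became 27 and 30. Of all genes, 40.2% and 39.4% rose and 13.6% and 14.9% fell with these scalings. The 7 that fell at least 2-fold became 1 and 1 with these scalings and 3 with upper quartile scaling. They became 3 of 100 genes tested when at least 1 CPM in 4 libraries was required. Of all genes, 3.05%, 3.26%, 4.97% and 6.22% fell at least 2-fold in these settings, against 6.56% in the main fit. Upper quartile scaling gave 19 rises (18.6%, against 34.1% of all genes) and 46 falls (45.1%, against 20.3%). Leaving out 1 library gave 14 to 18 rises and 48 to 60 falls. At least 2-fold, it gave 9 to 10 rises and 4 to 14 falls. The falls of at least 2-fold were 14 without control replicate 1, 11 without KO replicate 3 and 4 without KO replicate 2 or 4. Of all genes, 28.1 to 32.3% rose and 21.5 to 25.3% fell in these fits. At least 2-fold, 22.3 to 24.0% and 5.50 to 7.46% of all genes did. Of the paralogue pairs, 6 passed the threshold over all 10 and 0 over the 9 without Taf7l and Taf7. DESeq2 gave 15 rises and 55 falls, with 30.3% and 24.1% of all genes. The exact test of edgeR gave 15 and 56, with 32.2% and 24.3% of all genes.

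Gtf2b turned to 0.25 with library size only, 0.069 with upper quartile scaling, 0.22 with TMM on genes of at least 10 CPM, 0.040 with the stricter filter, and it ranged from -0.046 to 0.012 when 1 library was left out, turning without KO replicate 1. Gtf3c3 turned to 0.18, 0.00042 and 0.15 with the first 3 of these, and Med17 to 0.12 with library size only and 0.092 with TMM on genes of at least 10 CPM. Over the values of single genes and of paralogue ratios together, 1183 stayed the same, 62 lost the call, 13 gained one and 10 turned. For a gene, the same means that direction and side of the threshold were kept. For a ratio it means that the direction was kept and the move was within the SD of the libraries. The cause was not tested.

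With the replicate number as a block, 15 members rose and 49 fell, 9 and 6 at least 2-fold. Of all genes, 28.6% rose and 21.8% fell in that fit, 22.4% and 6.52% at least 2-fold. The replicate numbers did not pair the libraries, with correlations of -0.07, -0.04, 0.11 and -0.12 between same-numbered deviations. Among the other combinations, control replicate 1 was at 0.37 with KO replicate 4 and at -0.33 with KO replicate 3. What these libraries share was not tested. Counting noise limits Gtf2ird2, Med9os and Taf7l.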
